A study of Homo sapiens with 36 samples.

Results

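The 9 genes described here are NF-kB subunits (NFKB1, NFKB2, RELA and RELB), inhibitors of the pathway (NFKBIA and TNFAIP3) and inflammatory targets (BIRC3, CXCL8 and PTGS2). They were taken by symbol from 2 deposited expression tables, where they made up 9 of 13364 genes and 9 of 13066 genes. NF-kB is a family of dimeric transcription factors that inhibitor proteins such as the product of NFKBIA hold in the cytoplasm until kinases mark the inhibitor for destruction. In the canonical branch the released dimer usually holds RELA and the NFKB1 product, and in the non-canonical branch RELB pairs with the processed NFKB2 product. The dimers act on genes that hold kB sites, among them NFKBIA and TNFAIP3, whose products restrain the pathway, and CXCL8, a chemokine gene that many melanoma lines transcribe.

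The study measured 3' transcript tags (QuantSeq Forward) in 2 human melanoma cell lines, IGR37 and 501mel, after stearoyl-CoA desaturase (SCD), the enzyme that makes monounsaturated fatty acids, was inhibited or knocked down. Each line had an inhibitor group (SCDi, labelled A939372, 1 uM) beside DMSO, and groups of SCD siRNAs siSCD_1 and siSCD_2 beside the control siRNA groups siCTR_1 and siCTR (20 nM). All treatments lasted 48 hours, and both lines grew in RPMI-1640 with fetal bovine serum and antibiotics. Each of the 12 groups had 3 libraries, 36 in all, and the labels do not say whether these came from separate cultures, so a p-value here sets a difference against the spread of libraries that may be technical repeats. SCDi, DMSO, siSCD_2 and siCTR of both lines were in the first table (24 libraries), and siSCD_1 and siCTR_1 in the second (12 libraries). The tables were normalised separately, so tests were made within a table. Only transcripts were measured, not proteins or their place in the cell, and a bulk library cannot tell apart fewer cells that transcribe a gene and less RNA per cell.

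Values are log2 CPM (reads scaled to the library's size, on a log2 scale) as deposited. Gene reads per library ranged from 4078450 to 6685898 in the first table and from 2402788 to 7483010 in the second, and the shallowest library was IGR37 siSCD_1 replicate 2. A count of 0 in a library allowed a level of up to 0.416 to 0.720 CPM in the first table and 0.388 to 1.19 CPM in the second, for counting error only. SCD itself fell by 2.67 ± 0.07 and 2.85 ± 0.07 (log2, SE) under siSCD_1 in IGR37 and 501mel, and by 4.15 ± 0.16 and 4.33 ± 0.16 under siSCD_2. All 7 listed pigment-lineage markers were measured in both tables. Of 17 listed markers of blood, endothelial, fibroblast and epithelial cells, 7 were in the first table and 5 in the second, and PTPRC, CD14, LYZ, CD3E, COL1A2 and EPCAM were in neither. Their summed reads ranged from 102 to 596 and from 67 to 215 per library, mostly of CD68 in 501mel and of CD68 and LUM in IGR37. CD68 was higher with the inhibitor, with 754 reads in the 3 IGR37 SCDi libraries against 180 in DMSO and 1455 in 501mel SCDi against 926 in DMSO. It was lower with siSCD_2, with 70 reads against 265 in siCTR in IGR37 and 408 against 967 in 501mel. LUM had 57 reads in IGR37 SCDi against 222 in DMSO, and the part of these markers in the results was not tested. Without CD68 the summed marker reads were 36 to 56 per library in IGR37 SCDi, against 96 to 106 in DMSO.

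RefSeq promoter windows (GRCh38.p14, 250 bases before to 50 after the start site) were at hand for 8 of the 9 genes, all but RELB. They were searched on both strands for the 10-letter kB consensus, for GGNNTTTCC, a motif common among canonical sites, and for TGANTCA, the AP-1 motif. The kB consensus was found in 4 of the 8 windows (NFKB1, NFKBIA, TNFAIP3 and BIRC3), against 10.8% of 27305 promoters. GGNNTTTCC was found in those 4 and in CXCL8, against 6.26% of promoters, and in the first 4 it overlapped a match to the consensus. TGANTCA was found in CXCL8, 137 bases before the start site, against 7.76% of promoters. A further motif, TGATGNAA, was searched for in the same way and found in 0 of the 8 windows, against 3.67% of promoters. No kB match was found in the windows of NFKB2, RELA and PTGS2. The RELA window (chr11:65663808-65664107, - strand) lies wholly before the GENCODE 29 start of RELA at 65663094, so the bases around that start were not searched. The stretches that hold the matches are printed 5′ to 3′ on the strand of the gene, with the matches to either kB motif in capitals, because these are the genes whose transcripts are followed below.
NFKB1, chr4:102501239-102501358, + strand: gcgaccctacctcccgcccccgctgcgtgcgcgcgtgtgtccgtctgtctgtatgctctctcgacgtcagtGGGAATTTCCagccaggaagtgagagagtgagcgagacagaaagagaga
NFKBIA, chr14:35404750-35404869, - strand: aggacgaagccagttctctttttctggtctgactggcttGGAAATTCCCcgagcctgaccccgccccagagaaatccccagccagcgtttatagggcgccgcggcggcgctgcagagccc
TNFAIP3, chr6:137867139-137867258, + strand: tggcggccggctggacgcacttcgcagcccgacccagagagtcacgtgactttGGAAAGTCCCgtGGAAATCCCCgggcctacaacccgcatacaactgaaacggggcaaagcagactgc
BIRC3, chr11:102317264-102317383, + strand: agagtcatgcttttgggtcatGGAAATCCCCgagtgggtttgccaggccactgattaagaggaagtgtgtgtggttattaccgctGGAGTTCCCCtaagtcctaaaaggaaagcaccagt
CXCL8, chr4:73740449-73740568, + strand: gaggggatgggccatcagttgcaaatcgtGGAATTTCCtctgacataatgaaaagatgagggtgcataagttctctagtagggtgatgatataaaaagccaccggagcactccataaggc
The matches lay 49 bases before the RefSeq start site in NFKB1, 81 in NFKBIA, 67 and 55 in TNFAIP3, 199 and 135 in BIRC3, and 91 in CXCL8. By the GENCODE 29 start of TNFAIP3 (137867188) its matches, from 137867192 and 137867204, lie inside the gene. The GENCODE starts of NFKB1, BIRC3 and CXCL8 also lie before their RefSeq starts, nearer to the matches. A further GGNNTTTCC match in NFKBIA, 242 bases before its start, lies outside the printed stretch. A match describes the letters only, and factor binding was not measured in these libraries.

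**Figure D1:**
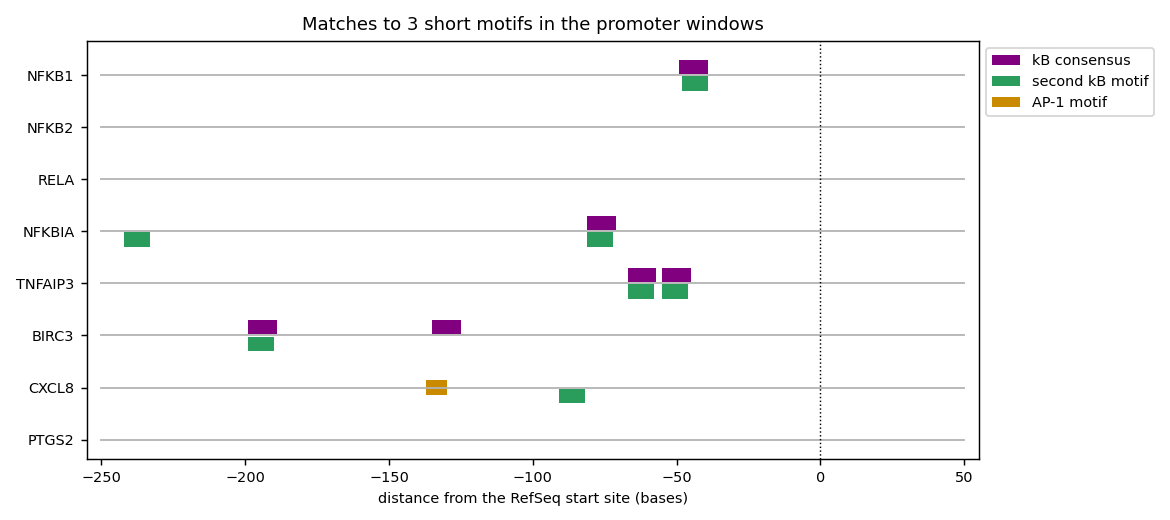
Positions of the motif matches in the promoter windows of 8 genes, as distance from the RefSeq start site in bases (dotted line at 0). Bars above each line mark the kB consensus, bars below it the second kB motif, and the centred bar the AP-1 motif; 5 windows hold a kB match and 3 (NFKB2, RELA, PTGS2) hold none.

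The 3 perturbations differed in how many of the 9 genes they moved, and the lines differed most under the inhibitor. In IGR37, SCDi raised 8 genes and lowered 0, in a comparison in which 20.9% of all genes rose and 23.1% fell (limma, Benjamini-Hochberg adjusted p under 0.05). In 501mel, SCDi moved 0 of the 9 by that test, where 0.232% of all genes rose and 0.0599% fell; CXCL8 alone, 1 member, had an unadjusted p under 0.05, and limma-voom on the recovered reads also called 0. For the falls counted as 0 in IGR37 under SCDi and siSCD_1, 0 genes had an unadjusted p under 0.05 and limma-voom called 0. siSCD_1 raised 9 and lowered 0 in IGR37 (background 16.7% higher and 19.4% lower), and raised 7 and lowered 1 in 501mel (20.9% and 22%). BIRC3, among those 9, was present in the second table through its IGR37 siSCD_1 libraries, as set out below. siSCD_2 raised 5 and lowered 2 in IGR37 (23.2% and 22.7%), and raised 3 and lowered 1 in 501mel (18.3% and 19.5%). RELB, NFKBIA and CXCL8 rose in 5 of the 6 comparisons. The median log2 change of the 9 genes under SCDi was 1.54 in IGR37 and -0.03 in 501mel, under siSCD_1 it was 1.77 in IGR37 and 1.39 in 501mel, and under siSCD_2 it was 1.36 in IGR37 and 0.23 in 501mel. The median over all genes lay between -0.01 and 0.01 in each of the 6. Scaling on the added spike-in RNA, tried after seeing the data, moved the median of all genes by 0.55 in 501mel SCDi and by -0.44 in 501mel siSCD_2 and -0.33 in IGR37 siSCD_2. Under that scaling 2 of the 9 passed in 501mel SCDi, CXCL8 (1.56, adjusted p = 0.0071) and TNFAIP3 (0.67, adjusted p = 0.0394), while CXCL8 in 501mel siSCD_2 did not (0.84, adjusted p = 0.067). Placing PTGS2, which had 0 reads in IGR37 siCTR, at its bound left the IGR37 siSCD_2 median at 1.36.

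**Figure D2:**
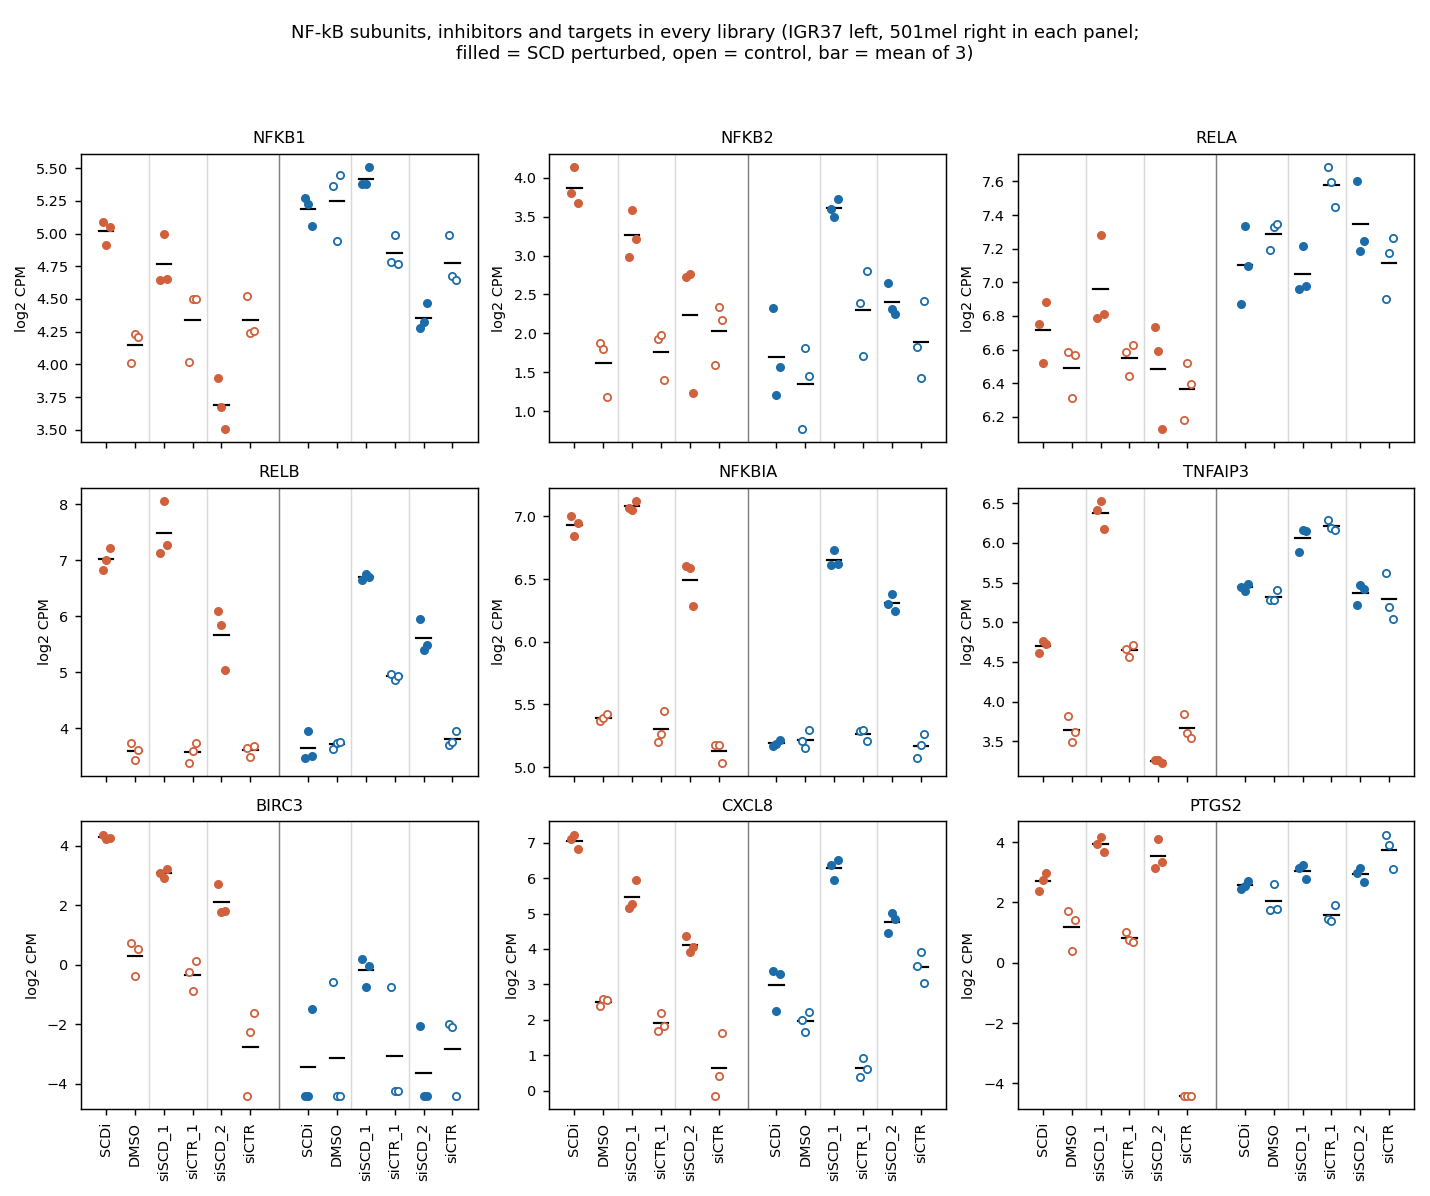
Deposited log2 CPM of each gene in every library, with IGR37 on the left and 501mel on the right of each panel. Filled points are SCDi, siSCD_1 and siSCD_2, open points are DMSO, siCTR_1 and siCTR, bars are means of 3 libraries, and siSCD_1 and siCTR_1 come from the separately normalised second table. RELB and NFKBIA stand apart from their controls in all pairs but 501mel SCDi, and PTGS2 lies at its lowest possible value in the 3 IGR37 siCTR libraries.

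RELB (chromosome 19, 45001430 to 45038198, + strand, hg38, GENCODE 29), the transactivating subunit of the non-canonical branch, changed most among the subunits. In IGR37 it was at 6.83, 7.00 and 7.22 under SCDi, against 3.74, 3.44 and 3.62 under DMSO. It was at 7.12, 8.06 and 7.27 under siSCD_1, against 3.39, 3.61 and 3.74 under siCTR_1. It was at 6.10, 5.84 and 5.04 under siSCD_2, against 3.66, 3.48 and 3.69 under siCTR. In all 3 pairs every treated IGR37 library lay above every control library, and the 3 control groups lay close together. The log2 changes were 3.42 ± 0.20 (SE; adjusted p = 5.64e-13), 3.91 ± 0.18 (2.89e-10) and 2.05 ± 0.20 (5.48e-09), with n = 3 libraries a group.

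In 501mel RELB split by the kind of perturbation. Under SCDi it was at 3.48, 3.95 and 3.51, against 3.64, 3.75 and 3.75 under DMSO. The groups overlapped, and the 95% interval of the log2 change ran from -0.47 to 0.34. Under siSCD_1 it was at 6.64, 6.76 and 6.70, against 4.98, 4.86 and 4.94 under siCTR_1, and under siSCD_2 at 5.94, 5.40 and 5.48, against 3.70, 3.75 and 3.96 under siCTR. Neither siRNA group overlapped its control, and the changes were 1.77 ± 0.18 (adjusted p = 9.72e-07) and 1.80 ± 0.20 (6.63e-08). In the first table the order of RELB means was IGR37 SCDi, IGR37 siSCD_2, 501mel siSCD_2, then the other 5 groups between 3.60 and 3.81, and neither the siSCD_2 groups nor those 5 groups differed among themselves beyond the spread of their libraries.

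NFKB2 (chromosome 10, 102394110 to 102402529, + strand), whose product is processed into the partner of RELB, had few reads, 8 to 96 per library in the first table. In IGR37 it was at 3.80, 4.14 and 3.68 under SCDi, against 1.87, 1.80 and 1.17 under DMSO, and at 2.99, 3.58 and 3.21 under siSCD_1, against 1.92, 1.98 and 1.40 under siCTR_1. Both pairs were without overlap, with changes of 2.26 ± 0.39 (adjusted p = 3.51e-05) and 1.49 ± 0.29 (0.000809). In 501mel it rose under siSCD_1 by 1.31 ± 0.29 (adjusted p = 0.00181), at 3.60, 3.49 and 3.73 against 2.39, 1.70 and 2.80 under siCTR_1. It did not pass the test under 501mel SCDi (0.35 ± 0.39), IGR37 siSCD_2 (0.20 ± 0.39) or 501mel siSCD_2 (0.51 ± 0.39). In IGR37 siSCD_2 its libraries spread from 1.23 to 2.76, and the library without a matched replicate number was the low one.

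NFKB1 (chromosome 4, 102501329 to 102617302, + strand), whose product partners RELA, moved in opposite directions under the inhibitor and siSCD_2 in IGR37. It was at 5.09, 4.91 and 5.05 under SCDi, against 4.01, 4.23 and 4.21 under DMSO, a rise of 0.87 ± 0.14 (adjusted p = 2.24e-05). It was at 3.89, 3.67 and 3.51 under siSCD_2, against 4.53, 4.24 and 4.25 under siCTR, a change of -0.65 ± 0.14 (adjusted p = 0.00062). Neither pair overlapped. Under siSCD_1 NFKB1 was at 4.65, 4.99 and 4.65, against 4.02, 4.50 and 4.50 under siCTR_1, a change of 0.42 ± 0.15 (adjusted p = 0.035). That call was lost without siSCD_1 replicate 2, the shallowest library (0.31, adjusted p = 0.132), without siCTR_1 replicate 1 (0.26, adjusted p = 0.189), and in 4 other alternatives of 16 (adjusted p 0.0509 to 0.116). In 501mel NFKB1 rose under siSCD_1 by 0.57 ± 0.15 (adjusted p = 0.0052), at 5.38, 5.38 and 5.51 against 4.79, 4.99 and 4.77 under siCTR_1. It fell under siSCD_2, with a change of -0.42 ± 0.14 (adjusted p = 0.0244), at 4.28, 4.32 and 4.47 against 4.99, 4.68 and 4.65 under siCTR. That fall was not called with only the groups compared in the fit (adjusted p = 0.0506) or without siCTR replicate 1 (-0.31, adjusted p = 0.141), siSCD_2 replicate 1 (0.0768) or siSCD_2 replicate 2 (0.0654). Under 501mel SCDi the NFKB1 change was -0.06 ± 0.14 and the groups overlapped.

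RELA (chromosome 11, 65653596 to 65663094, - strand), the transactivating subunit of the canonical branch, varied least and moved in opposite directions in the lines under siSCD_1. In IGR37 it was at 6.79, 7.28 and 6.81 under siSCD_1, against 6.58, 6.44 and 6.62 under siCTR_1, a change of 0.41 ± 0.12 (adjusted p = 0.013). In 501mel it was at 6.96, 7.22 and 6.98 under siSCD_1, against 7.68, 7.60 and 7.45 under siCTR_1, a change of -0.52 ± 0.12 (adjusted p = 0.00217). Neither pair overlapped, but the IGR37 rise was not called without siSCD_1 replicate 2 (0.25, adjusted p = 0.0539) or siCTR_1 replicate 2 (0.36, adjusted p = 0.0618), with no variance trend (0.0522) or with only the groups compared in the fit (0.0673). RELA did not pass in the other 4 comparisons, where its changes lay between -0.19 and 0.23 with intervals inside -0.49 to 0.53. GENCODE places AP001362.2 over RELA and AL357060.1 over TNFAIP3 on the opposite strand, and how the tags were assigned to strands is not given in the sources used here.

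NFKBIA (chromosome 14, 35401511 to 35404749, - strand) encodes the inhibitor that is rebuilt after NF-kB acts, and its rises in 5 of the 6 comparisons lay between 1.14 and 1.77. In IGR37 it was at 7.00, 6.85 and 6.94 under SCDi against 5.37, 5.39 and 5.42 under DMSO, at 7.07, 7.05 and 7.12 under siSCD_1 against 5.20, 5.27 and 5.45 under siCTR_1, and at 6.60, 6.59 and 6.29 under siSCD_2 against 5.18, 5.17 and 5.04 under siCTR. In 501mel it was at 6.61, 6.73 and 6.62 under siSCD_1 against 5.29, 5.30 and 5.21 under siCTR_1, and at 6.30, 6.38 and 6.25 under siSCD_2 against 5.07, 5.18 and 5.27 under siCTR. None of these 5 pairs overlapped. The IGR37 changes were 1.54 ± 0.09 (adjusted p = 1.18e-12), 1.77 ± 0.09 (5.03e-10) and 1.36 ± 0.09 (1.13e-11), and those of 501mel were 1.39 ± 0.09 (5.81e-09) and 1.14 ± 0.09 (4.71e-10). Under 501mel SCDi it was at 5.17, 5.18 and 5.22, against 5.21, 5.16 and 5.30 under DMSO. These groups overlapped, with an interval of the change from -0.22 to 0.16, the narrowest among the 9 genes in that comparison.

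TNFAIP3 (chromosome 6, 137867188 to 137883312, + strand), a ubiquitin-editing enzyme that damps signalling to NF-kB, rose in IGR37 under SCDi and siSCD_1. It was at 4.62, 4.76 and 4.72 under SCDi, against 3.82, 3.49 and 3.62 under DMSO. It was at 6.41, 6.53 and 6.18 under siSCD_1, against 4.66, 4.56 and 4.72 under siCTR_1. The rises were 1.06 ± 0.13 (adjusted p = 5.28e-07) and 1.73 ± 0.11 (8.61e-09), without overlap. Under siSCD_2 it was lower in IGR37, at 3.26, 3.27 and 3.23 against 3.84, 3.60 and 3.55 under siCTR (-0.41 ± 0.13, adjusted p = 0.0155), and that call was lost without siCTR replicate 1 (-0.32, adjusted p = 0.0863) and in a fit of only the groups compared (0.0904). In 501mel it did not pass in any comparison, with changes of 0.12 ± 0.13 under SCDi, -0.15 ± 0.11 under siSCD_1 and 0.08 ± 0.13 under siSCD_2.

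CXCL8 (chromosome 4, 73740506 to 73743716, + strand), the neutrophil chemokine, rose by up to 5.63, in 501mel siSCD_1. In IGR37 it was at 7.09, 7.23 and 6.82 under SCDi (533 to 818 reads), against 2.40, 2.59 and 2.55 under DMSO (29 to 33 reads). It was at 5.15, 5.26 and 5.95 under siSCD_1, against 1.68, 2.19 and 1.82 under siCTR_1, and at 4.37, 3.92 and 4.07 under siSCD_2, against -0.16, 0.42 and 1.63 under siCTR. All 3 pairs were without overlap, with rises of 4.54 ± 0.33 (adjusted p = 3.79e-11), 3.56 ± 0.24 (2.37e-08) and 3.49 ± 0.33 (4.15e-09). Set against the DMSO libraries, a comparison added after seeing the data, the IGR37 siSCD_2 rise of CXCL8 was 1.61 ± 0.33 (adjusted p = 0.000325).

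In 501mel the CXCL8 rise was largest under siSCD_1. It was at 6.38, 5.94 and 6.50 under siSCD_1 (224 to 303 reads), against 0.38, 0.93 and 0.62 under siCTR_1 (6 to 11 reads), a change of 5.63 ± 0.24 (adjusted p = 1.12e-10). Under siSCD_2 it was at 4.45, 5.01 and 4.85, against 3.53, 3.91 and 3.03 under siCTR (1.28 ± 0.33, adjusted p = 0.00322), and against DMSO the change was 2.81 ± 0.33. Under SCDi it was at 3.37, 2.25 and 3.30, against 1.99, 1.67 and 2.24 under DMSO. The treated libraries all lay above the DMSO libraries, with replicate 2 close to the highest of them, and the change of 1.01 ± 0.33 did not pass over all genes (adjusted p = 0.25).

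PTGS2 (chromosome 1, 186671791 to 186680427, - strand), the inducible cyclooxygenase of prostaglandin synthesis, had no reads in any of the 3 IGR37 siCTR libraries, against 47, 71 and 61 reads under siSCD_2. On a floor of 3 reads over the group, PTGS2 was at least 69.3-fold higher under siSCD_2, and the fitted change depends on the prior count. The other IGR37 controls had 18, 7 and 13 reads under DMSO and 10, 10 and 12 under siCTR_1. Set against DMSO, the IGR37 siSCD_2 rise was 2.35 ± 0.36 (adjusted p = 1.16e-05), with 179 reads against 38. PTGS2 also rose in IGR37 under SCDi (2.39, 2.73 and 2.98 against 1.72, 0.39 and 1.41; 1.53 ± 0.36, adjusted p = 0.00131) and under siSCD_1 (3.93, 4.16 and 3.67 against 1.01, 0.74 and 0.68; 3.11 ± 0.27, adjusted p = 3.01e-07), again without overlap.

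In 501mel PTGS2 rose under siSCD_1, at 3.14, 3.22 and 2.77 against 1.45, 1.37 and 1.91 under siCTR_1 (1.47 ± 0.27, adjusted p = 0.00038). Under siSCD_2 it was at 2.97, 3.13 and 2.68, against 4.25, 3.89 and 3.10 under siCTR, and the change of -0.82 ± 0.37 did not pass (adjusted p = 0.0806). The direction depended on the control: against DMSO the change was 0.88 ± 0.37 (adjusted p = 0.0561). The difference from siCTR did pass in 4 of 17 alternatives (adjusted p as low as 0.017). These were the fit without siCTR replicate 3 (-1.14, adjusted p = 0.0267), a pseudocount of 1, limma-voom on recovered reads and spike-in scaling. Under SCDi the PTGS2 change was 0.51 ± 0.37 and the groups overlapped.

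BIRC3 (chromosome 11, 102317450 to 102339403, + strand), an inhibitor of apoptosis that also acts in TNF receptor signalling, had most of its reads in IGR37 libraries. It had 100, 103 and 91 reads under SCDi, against 9, 4 and 7 under DMSO, a ratio of summed reads per library size of 15.7 (95% counting interval 10.0 to 26.2). It had 48, 19 and 32 reads under siSCD_1, against 4, 3 and 8 under siCTR_1, a ratio of 10.7 (6.19 to 19.9). It had 35, 14 and 21 reads under siSCD_2, against 0, 1 and 2 under siCTR, a ratio of 27.1 (8.89 to 134). All 3 passed the test (adjusted p = 0.00207, 0.0025 and 0.00029) and none overlapped. Every gene of the second table had a log2 value over 0 in at least 3 libraries. Outside IGR37 siSCD_1, the only BIRC3 values over 0 there were 0.20 (501mel siSCD_1 replicate 1) and 0.12 (IGR37 siCTR_1 replicate 3). The presence of BIRC3 in that table thus rests on the group where it is high, which favoured a rise in the IGR37 siSCD_1 comparison. Set against DMSO, with 20 reads, the siSCD_2 change of BIRC3 was 1.80 ± 1.00 and did not pass (adjusted p = 0.158). In 501mel every group of the first table had 3 or fewer BIRC3 reads in all, and siSCD_1 had 9 reads against 3 under siCTR_1, a ratio of 4.42 (1.1 to 25.4) that passed the test (adjusted p = 0.0064) but not with only the groups compared in the fit (0.0587). These intervals cover counting error only.

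**Figure D3:**
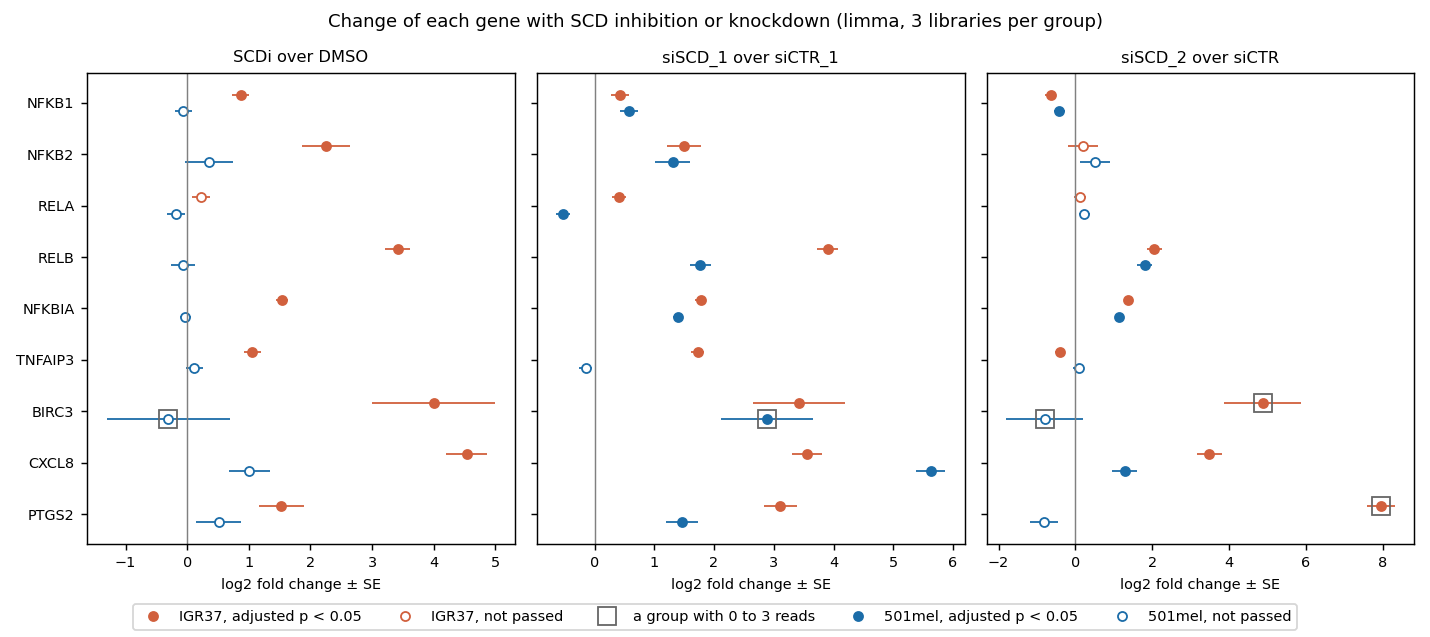
Log2 fold change (points) and SE (bars) of each gene under SCDi, siSCD_1 and siSCD_2, with IGR37 above 501mel on each row and filled points for adjusted p under 0.05. Squares mark fitted values that rest on a group with 0 to 3 reads and so depend on the prior count, among them PTGS2 in IGR37 siSCD_2; under SCDi all 501mel points are open while 8 of 9 IGR37 points are filled.

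The difference between the lines was tested as the treatment effect in IGR37 minus that in 501mel. Under SCDi 7 genes had the larger effect in IGR37 and 0 in 501mel, where 12.3% of all genes were higher and 15.3% lower by this test. The differences were 3.48 ± 0.28 for RELB, 1.57 ± 0.13 for NFKBIA, 3.53 ± 0.47 for CXCL8, 1.91 ± 0.55 for NFKB2, 0.93 ± 0.20 for NFKB1 and 0.94 ± 0.19 for TNFAIP3, and BIRC3 also passed. PTGS2 (1.01 ± 0.52, adjusted p = 0.151) and RELA (0.41 ± 0.21, adjusted p = 0.142) did not pass. Under spike-in scaling 4 of the 7 passed, and those of NFKB1 (0.43, adjusted p = 0.406), NFKB2 (1.41, 0.0814) and TNFAIP3 (0.45, 0.366) did not. Under siSCD_1 the signed difference was above 0 for 5 genes and below 0 for 1 (background 10% and 10.3%). For RELA, among the 5, the change was 0.41 in IGR37 and -0.52 in 501mel, of opposite sign. RELB differed by 2.13 ± 0.25, TNFAIP3 by 1.87 ± 0.15, PTGS2 by 1.64 ± 0.38, RELA by 0.94 ± 0.17 and NFKBIA by 0.38 ± 0.12, while CXCL8 differed by -2.07 ± 0.34, the larger rise being that of 501mel. Under siSCD_2 3 genes differed upward and 0 downward (11.6% and 9.47%): CXCL8 by 2.21 ± 0.47, with BIRC3 and PTGS2, whose siCTR reads in IGR37 were 3 and 0. The CXCL8 difference also depends on siCTR, where CXCL8 changed by -1.88 in IGR37 and by 1.53 in 501mel against DMSO. Set against DMSO, its siSCD_2 rise was 1.61 in IGR37 and 2.81 in 501mel, and the difference of these was not tested. Beside the counts of 0, TNFAIP3 under siSCD_2 had an unadjusted p under 0.05 (-0.49 ± 0.19, adjusted p = 0.0711), no member did under SCDi, and limma-voom called 0 in both. For RELB under siSCD_2 the interval of the difference ran from -0.33 to 0.82, and for NFKBIA from -0.04 to 0.50.

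The inhibitor and siSCD_2 were set against each other within the first table, as the SCDi effect minus the siSCD_2 effect; the control groups differ and the doses are of different agents. In IGR37 this signed difference was above 0 for 4 genes (background 18.7%): NFKB1 (1.51 ± 0.20), NFKB2 (2.05 ± 0.55), RELB (1.37 ± 0.28) and TNFAIP3 (1.46 ± 0.19). The SCDi and siSCD_2 effects were of opposite sign for NFKB1 (0.87 and -0.65) and TNFAIP3 (1.06 and -0.41). The PTGS2 difference was below 0 (background 20.2%), a call that rests on the empty siCTR group. In 501mel 0 genes had the larger effect under SCDi and 2 the smaller (11.5% and 9.51%), RELB by -1.87 ± 0.28 and NFKBIA by -1.17 ± 0.13. Neither passed under spike-in scaling, where the differences were -0.88 (adjusted p = 0.0568) for RELB and -0.17 (adjusted p = 0.626) for NFKBIA. In that count of 0, PTGS2 had an unadjusted p under 0.05 (1.33 ± 0.52, adjusted p = 0.0685), and limma-voom on the recovered reads called 1 gene. The IGR37 interval for NFKBIA ran from -0.10 to 0.44.

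The control siRNA group also differed from DMSO, and CXCL8 and PTGS2 did so in opposite directions in the lines. In IGR37, siCTR against DMSO lowered 3 genes and raised 0 (background 8.99% lower and 6.46% higher). CXCL8 fell by 1.88 on the log2 scale (SE 0.33, adjusted p = 0.000262), BIRC3 had 3 reads against 20, a ratio of 0.133 (0.0253 to 0.449; adjusted p = 0.0382), and PTGS2 was at least 14.3-fold lower, with 0 reads against 38. The BIRC3 fall was not called in 6 of 15 alternatives: with no variance trend (adjusted p = 0.0586) and without any 1 DMSO library or siCTR replicate 1 or 2 (adjusted p 0.052 to 0.197). Beside this 0 of rises, 0 members had an unadjusted p under 0.05 for a rise, and limma-voom called 0. In 501mel, siCTR against DMSO raised CXCL8 by 1.53 ± 0.33 (adjusted p = 0.00295) and PTGS2 by 1.70 ± 0.36 (0.00284) and lowered NFKB1 (-0.48 ± 0.14, 0.0306), 2 genes up and 1 down (4.74% and 6.57%). The NFKB1 fall was lost without DMSO replicate 1 or 3 and without siCTR replicate 2 or 3 (adjusted p 0.105 to 0.163). RELB and NFKBIA passed in neither line, though in IGR37 NFKBIA was close to the threshold (-0.27 ± 0.09, adjusted p = 0.0541), with every siCTR library below every DMSO library. They had siCTR means of 3.61 and 5.13 against DMSO means of 3.60 and 5.39 in IGR37 and of 3.81 and 5.17 against 3.71 and 5.22 in 501mel.

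Under DMSO and siCTR the lines differed in about as large a share of the 9 genes as of all genes. Under DMSO, IGR37 against 501mel had 1 gene higher and 4 lower (background 31.1% and 29.7%), under siCTR 0 higher and 5 lower (32.1% and 30.4%) and under siCTR_1 2 higher and 5 lower (31.1% and 29.2%). NFKB1, RELA, TNFAIP3 and PTGS2 were lower in IGR37 in all 3. RELA differed by -0.80 ± 0.15, -0.75 ± 0.15 and -1.03 ± 0.12, and TNFAIP3 by -1.68 ± 0.13, -1.62 ± 0.13 and -1.56 ± 0.11 under DMSO, siCTR and siCTR_1. The PTGS2 difference under DMSO (-0.88 ± 0.37, adjusted p = 0.0403) was lost without 501mel DMSO replicate 2 or IGR37 DMSO replicate 2, and that under siCTR_1 (-0.77 ± 0.27, 0.0223) without 501mel siCTR_1 replicate 3 or IGR37 siCTR_1 replicate 2 or 3. CXCL8 was lower in IGR37 under siCTR (-2.86 ± 0.33) and higher under siCTR_1 (1.25 ± 0.24). RELB passed under siCTR_1 (-1.35 ± 0.18) and not under DMSO or siCTR, with 3.39, 3.61 and 3.74 in IGR37 against 4.98, 4.86 and 4.94 in 501mel. The difference of these line differences was not tested, since siCTR and siCTR_1 are in different tables. No gene was higher in IGR37 under siCTR, where 0 had an unadjusted p under 0.05 in that direction and limma-voom called 0.

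Of 89 other listed NF-kB pathway genes, 68 were measured in the first table and 70 in the second. Under SCDi 21 rose and 5 fell in IGR37 (median 0.35) and 1 rose and 0 fell in 501mel (median 0.02). Of all genes, 20.9% rose and 23.1% fell in IGR37 SCDi, and 0.232% and 0.0599% in 501mel SCDi. Under siSCD_1 20 rose and 6 fell in IGR37 (median 0.26) and 28 rose and 9 fell in 501mel (median 0.55). The shares of all genes were 16.7% and 19.4% in IGR37 siSCD_1, and 20.9% and 22% in 501mel siSCD_1. Under siSCD_2 13 rose and 10 fell in IGR37 (median 0.10), while in 501mel 11 rose and 15 fell (median -0.22). Those of all genes were 23.2% and 22.7% in IGR37 siSCD_2, and 18.3% and 19.5% in 501mel siSCD_2. The shares rising under siSCD_2 were thus close to those of all genes in each line, and the 501mel SCDi rise was that of IER3 (0.48 ± 0.10, adjusted p = 0.0411), a stress-induced NF-kB target, which was lost without DMSO replicate 1 or 3 or any SCDi library. Under spike-in scaling 19 rose in 501mel SCDi, while under siSCD_2 5 rose in IGR37 and 3 rose and 26 fell in 501mel.

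Among receptors, TNFRSF1A, the main TNF receptor, rose in all but 501mel SCDi, by 0.51 ± 0.11, 0.91 ± 0.10 and 1.45 ± 0.11 in IGR37 under SCDi, siSCD_1 and siSCD_2 and by 1.06 ± 0.10 and 0.75 ± 0.11 in 501mel under siSCD_1 and siSCD_2. IL1RAP, the accessory chain of the IL1 receptor, rose by 1.27 ± 0.22 in 501mel siSCD_2 and was higher in 3 of the 6 comparisons and lower in 0. TLR4, a receptor for bacterial lipopolysaccharide, fell in 501mel siSCD_1, with 4 reads against 32. CD40 was called in all 3 IGR37 comparisons but had 5 or 6 reads in the treated groups, against 1 or 2 in the controls, and its counting intervals included no change.

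Among adaptors and kinases, XIAP, an inhibitor of caspases, rose by 1.43 ± 0.16 in IGR37 SCDi, TRAF3, which restrains the non-canonical branch, by 0.73 ± 0.15 in 501mel siSCD_2, and BIRC2, a ubiquitin ligase related to BIRC3, by 1.04 ± 0.12 in IGR37 siSCD_2. TRAF2, an adaptor of TNF receptors, fell by 0.82, IRAK1, a kinase below the IL1 receptor, by 0.72, and IKBKE by 0.65 in IGR37 SCDi. TRAF2 was lower in 4 of the 6 comparisons and higher in 0. IRAK1 fell by 0.97 in 501mel siSCD_2. CHUK, a kinase of the non-canonical branch, fell by 1.11 in IGR37 siSCD_1, and TAB3 by 1.15 in IGR37 siSCD_2.

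The remaining subunit, REL, rose by 1.51 ± 0.17 in IGR37 SCDi and by 1.31 ± 0.20 in IGR37 siSCD_1. In 501mel it rose by 0.53 ± 0.20 under siSCD_1 (adjusted p = 0.0375) and by 0.62 ± 0.17 under siSCD_2. Of 12 other inhibitors, 9 rose and 1 fell in IGR37 siSCD_1 (16.7% and 19.4% of all genes). There BCL3, an atypical member of the inhibitor family, rose by 1.54 ± 0.15, CYLD, a deubiquitinase, by 1.31 ± 0.17 and ZC3H12A, an endoribonuclease, by 1.24 ± 0.29. CYLD also rose by 1.45 ± 0.19 in IGR37 SCDi and by 2.08 ± 0.17 in 501mel siSCD_1, and fell in 501mel siSCD_2 (-0.63 ± 0.19, adjusted p = 0.00949). In 501mel siSCD_2 1 of the 12 rose and 5 fell (18.3% and 19.5% of all genes), BCL3 by -1.05 ± 0.27 among them. OTULIN, another deubiquitinase, fell by 0.77 in 501mel siSCD_1 and was lower in 4 of the 6 comparisons and higher in 0.

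Among 23 other targets in the second table, 2 rose and 4 fell in IGR37 siSCD_1 (16.7% and 19.4% of all genes), and 11 rose and 3 fell in 501mel siSCD_1 (20.9% and 22%). The 501mel rises included chemokines: CXCL1 had 72 reads under siSCD_1 against 5 under siCTR_1 (5.03 ± 0.62), CXCL2 42 against 8 (2.97 ± 0.57) and CCL2 46 against 12 (2.67 ± 0.67). CXCL10 had 29 reads against 0, at least 14.3-fold higher, and IL32 50 against 0, at least 24.6-fold higher. CXCL10, IL32 and, among the ligands, LTB lay above a log2 value of 0 in the 501mel siSCD_1 libraries alone. Every gene of this table had a log2 value over 0 in at least 3 libraries, so the presence of these 3 in it fixed their direction. They are among the 28 pathway genes counted as rising there, and CXCL10 and IL32 are among the 11 targets. CCL20 had 28 reads against 1, a ratio of 41.3 (6.83 to 1690). In IGR37 SCDi CXCL2 had 100 reads against 3, a ratio of 35.7 (11.9 to 176), while CCL2 had 0 against 8, at least 2.49-fold lower. In 501mel siSCD_2 CCL20 had 25 reads against 2, a ratio of 12.1 (3.02 to 106), and CXCL2 38 against 6 (3.18 ± 0.79).

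IER3 rose by 1.51 ± 0.10, 1.42 ± 0.07 and 1.56 ± 0.10 in IGR37 under SCDi, siSCD_1 and siSCD_2. In 501mel IER3 rose by 1.22 ± 0.07 under siSCD_1 and fell under siSCD_2 (-0.82 ± 0.10, adjusted p = 5.76e-07). SDC4, a heparan sulphate proteoglycan, fell by 1.96 in IGR37 and by 2.17 in 501mel under siSCD_2 and by 0.66 in IGR37 under siSCD_1. SOD2, also listed as a target, was lower in 4 of the 6 comparisons and higher in 0. BCL2A1, an anti-apoptotic gene, rose by 0.90 ± 0.22 and BCL2L1, another, fell by 1.19 in IGR37 siSCD_2. BCL2L1 fell by 0.72 and CFLAR, which blocks death receptor signalling, by 0.63 in 501mel siSCD_1. TNFAIP8 fell by 1.14 in IGR37 siSCD_1, and IL11, a cytokine, fell in 501mel siSCD_2 with 14 reads against 105. PTX3, a secreted pattern recognition protein, had 1 read against 12 in IGR37 siSCD_1, a ratio of 0.135 (0.00317 to 0.915), and 0 against 13 in IGR37 siSCD_2, at least 3.73-fold lower. CCL2 in IGR37 siSCD_2 had 4 reads against 0 and was called higher (limma, adjusted p = 0.0195). Its fold of 1.55 bounds only the count of 0 and takes the 4 reads as exact, so a rise beyond counting error was not shown.

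**Figure D4:**
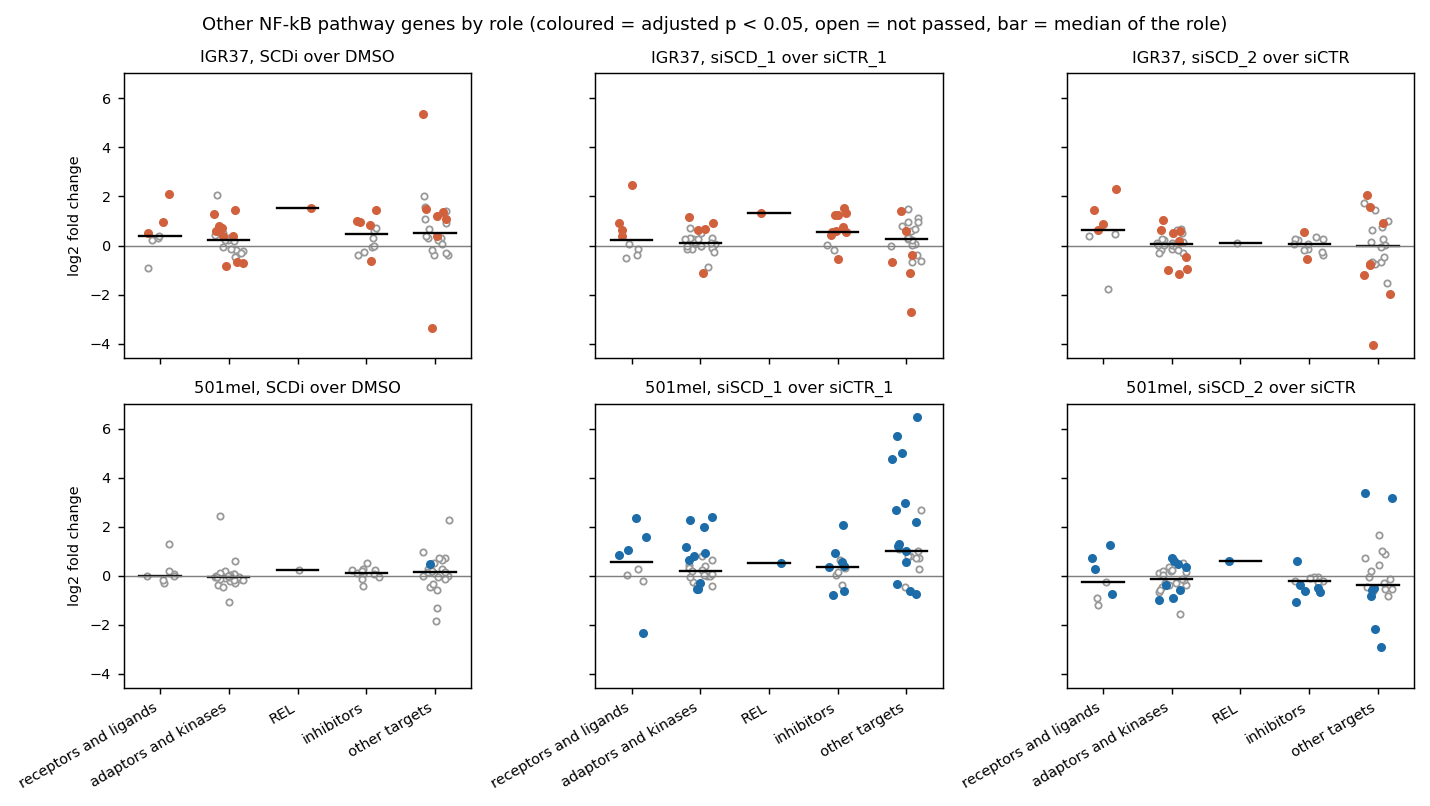
Fitted log2 fold changes of the other listed NF-kB pathway genes by role, IGR37 in the top row and 501mel in the bottom row, with coloured points for adjusted p under 0.05, open points for genes that did not pass and bars for the median of a role. Values beyond 4 in either direction rest on groups of 0 to 5 reads; the bottom middle panel shows the 11 targets that rose in 501mel siSCD_1.

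Stress genes outside the list moved beside these changes. DDIT3, a transcription factor gene of the unfolded protein response, changed by 4.14 ± 0.15, 3.65 ± 0.11 and 2.16 ± 0.15 in IGR37 under SCDi, siSCD_1 and siSCD_2, and by 0.60 ± 0.15 (adjusted p = 0.101), 3.39 ± 0.11 and 0.35 ± 0.15 (0.0658) in 501mel. ATF4, its upstream regulator, changed by 2.47 ± 0.14, 1.81 ± 0.09 and 0.87 ± 0.14 in IGR37 and by 0.69 ± 0.14, 1.07 ± 0.09 and 0.58 ± 0.14 in 501mel. In 501mel SCDi, where RELB and NFKBIA did not pass, ATF4 did (limma, adjusted p = 0.0188). In 501mel siSCD_2, where RELB and NFKBIA rose, ATF4 also passed (limma, adjusted p = 0.00159). DDIT3 did not pass there, with an unadjusted p of 0.0266. The part of this response in the NF-kB changes was not tested.

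Across libraries, after the mean of each line was subtracted, the patterns most like each gene were described over the 24 libraries of the first table, which share treatments and normalisation, with the 12 of the second beside them. RELB and NFKBIA were each other's closest match (Pearson r = 0.973 and 0.960), and NBR1, an autophagy receptor gene, was near both (0.959 and 0.978 with RELB, 0.961 and 0.963 with NFKBIA). CXCL8 was closest to SYVN1, a ubiquitin ligase gene of the endoplasmic reticulum (0.946 and 0.953), ZC3H12C (0.944 and 0.920) and CPEB4 (0.935 and 0.940). NFKB2 was closest to KIFC2 (0.851 and 0.792), NFKB1 to ZFAND6 (0.932 and 0.829), RELA to LMAN2 (0.748 and 0.708) and BIRC3 to MCF2L (0.905 and 0.823). For TNFAIP3 the first-table match with JAG1 (0.921) was low in the second table (0.363). The PTGS2 match with CDKN1B (0.964 and 0.884) included the 3 libraries with 0 PTGS2 reads.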

How the data were processed

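QuantSeq Forward 3' tag libraries were aligned with STAR to hg38 and normalised with edgeR, per the submitters' processing notes. Tool versions are not given in the sources used here. Log2 values were deposited in 2 tables and behaved as log2 CPM with a prior count of 0.25: under that form 100.0% of values gave whole reads within 0.01, largest distance 0.000382. Samples were grouped by their labels. One IGR37 siSCD_2 column could be tied to its group but not to a numbered library. Spike-ins stayed out of the tests.

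Each table was fitted with limma 3.58.1 (R 4.3.3; lmFit, contrasts.fit, eBayes with a variance trend) on the deposited values, all its libraries sharing the spread, and p-values were two-sided and adjusted by Benjamini-Hochberg over all its genes; 0.05 was the threshold. Requiring at least 3 libraries with a log2 value over 0 took out 0 genes. Reads were used for groups near 0, with a floor of 3 reads over the group for folds. Code was tested on simulated data. Figures used matplotlib 3.10.9.

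The 9 genes and all gene lists were chosen with earlier results of these data known. Beside the 9 genes, SCD, ATF4 and DDIT3, up to 6 rises and 4 falls among the other pathway genes were named per comparison. Values of TNFRSF1A, IER3, REL and some others were repeated where they recurred, but not every recurrence is given. For each gene the closest of its 3 most similar genes was named, and those shown beyond the first were chosen after their values were seen. SOD2, outside these rules, was also named after its values were seen. Settings varied were the variance trend (left out), the libraries in the fit (the compared groups alone), a stricter filter (a log2 value above 2 in 3 libraries, 11388 and 11149 genes left), a pseudocount of 1, median centring, quantile normalisation, each library left out and a replicate block. Spike-in scaling, limma-voom on recovered reads and DMSO as the control of siSCD_2 were chosen after seeing the data.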

Additional observations from a re-analysis of the deposited data

Results flagged for a closer look

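For 16 treatment effects the difference between IGR37 and 501mel passed the test of the difference itself (limma, adjusted p under 0.05). Under SCDi the IGR37 effect minus the 501mel effect, in log2, was 0.93 for NFKB1, 1.91 for NFKB2, 3.48 for RELB, 1.57 for NFKBIA, 0.94 for TNFAIP3, 4.30 for BIRC3 and 3.53 for CXCL8. The BIRC3 value rests on 2 and 3 reads in the 501mel groups and was lost without 501mel DMSO replicate 1, 501mel SCDi replicate 1 or 2, or IGR37 DMSO replicate 2 (adjusted p 0.0604 to 0.102).

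Under siSCD_1 the differences were 0.94 for RELA, 2.13 for RELB, 0.38 for NFKBIA, 1.87 for TNFAIP3, -2.07 for CXCL8 and 1.64 for PTGS2. Of these, CXCL8 alone had the larger rise in 501mel. The NFKBIA difference was lost in 8 of 12 fits without 1 library (adjusted p 0.0581 to 0.0946 where lost), those kept being without 501mel siCTR_1 replicate 3, 501mel siSCD_1 replicate 2, IGR37 siCTR_1 replicate 3 or IGR37 siSCD_1 replicate 2.

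Under siSCD_2 they were 5.67 for BIRC3, 2.21 for CXCL8 and 8.77 for PTGS2. The BIRC3 and PTGS2 values depend on the prior count, because IGR37 siCTR had 3 and 0 reads of them. The CXCL8 value depends on the control. Set against DMSO, the siSCD_2 rise of CXCL8 was 1.61 in IGR37 and 2.81 in 501mel.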

How the results depend on the processing

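Of 1710 refitted values of single genes, 1612 kept their direction and their side of the threshold, 67 were no longer called, 7 became called and 24 changed sign, 0 of them called in the report. Of 752 refitted counts, 710 stayed within 1.5 times. The cause of a change was not tested except where fewer libraries or another control make it.

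Spike-in scaling, chosen after seeing the data, gave all-gene splits of 3987 higher and 8 lower in 501mel SCDi (31 and 8 as deposited), 919 and 3671 in IGR37 siSCD_2 (3101 and 3035), 404 and 4191 in 501mel siSCD_2 (2447 and 2612), 1775 and 3101 in 501mel siSCD_1 (2733 and 2881), and 101 and 410 for IGR37 siCTR against DMSO (863 and 1202). For the line difference it gave 272 and 2914 under SCDi (1642 and 2049), 1031 and 601 under siSCD_1 (1313 and 1342) and 526 and 235 under siSCD_2 (1553 and 1266). For SCDi minus siSCD_2 it gave 2728 and 680 in IGR37 (2494 and 2694) and 7094 and 54 in 501mel (1534 and 1271). Median centring gave 1853 and 1021 for the siSCD_1 line difference. With spike-in scaling the members called were 2 higher in 501mel SCDi, 2 lower in 501mel siSCD_2, 4 higher for the SCDi line difference, 0 lower for 501mel siCTR against DMSO, and 3 higher and 0 lower for SCDi minus siSCD_2 in 501mel. Other pathway genes called were 19 higher in 501mel SCDi, 5 higher in IGR37 siSCD_2, and 3 higher and 26 lower in 501mel siSCD_2.

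Fits of only the groups compared called 3 pathway genes lower in IGR37 siSCD_1, 1 member lower in IGR37 siSCD_2, 0 members lower in 501mel siSCD_2, and 1 higher and 0 lower for 501mel siCTR against DMSO. A pseudocount of 1 called 2 members lower in 501mel siSCD_2 and 1 higher for 501mel SCDi minus siSCD_2, as did limma-voom on recovered reads, which called 1 lower in IGR37 siSCD_2. Pathway genes called higher in 501mel SCDi were 0 with median centring, quantile normalisation or no variance trend, and quantile normalisation called 8 lower in IGR37 SCDi. With group means removed, 5 of 17 pairs of same-numbered treated and control libraries correlated above 0.1 (from -0.19 to 0.25). Under SCDi, the same-numbered pairs of replicates 2 and 3 were at 0.25 and 0.18 in 501mel and at 0.15 and 0.097 in IGR37. The pairs of 2 with 3 were at -0.16 and -0.27 in 501mel and at -0.11 and -0.15 in IGR37. With the replicate block, TNFAIP3 in IGR37 siSCD_2 was no longer called (-0.42, adjusted p = 0.0519), leaving 1 member lower there, and no other call changed. Leaving out 1 library gave 0 to 2 members lower in 501mel siSCD_2, 1 to 2 lower in IGR37 siSCD_2, 0 to 1 lower for the siSCD_2 line difference and for 501mel siCTR against DMSO, 0 to 1 higher for 501mel SCDi minus siSCD_2, and 0 to 1 pathway genes higher in 501mel SCDi.

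All sign changes were of values not called. In 501mel SCDi, spike-in scaling gave 0.49 for NFKB1, 0.36 for RELA, 0.48 for RELB, 0.52 for NFKBIA and 0.245 for BIRC3, and leaving out 1 library gave -0.216 to 0.035 for NFKB1, -0.219 to 0.019 for RELB, -0.063 to 0.008 for NFKBIA and -1.28 to 0.98 for BIRC3. In 501mel siSCD_2, spike-in scaling gave -0.21 for RELA and -0.36 for TNFAIP3, leaving out siCTR replicate 3 gave -0.041 for TNFAIP3, and DMSO as the control gave 0.88 for PTGS2. In IGR37 siSCD_2, spike-in scaling gave -0.13 for NFKB2 and -0.21 for RELA, leaving out 1 library gave -0.057 to 0.708 for NFKB2 and -0.006 to 0.297 for RELA, and DMSO as the control gave -0.004 for RELA. Depth limits BIRC3, with 0 to 9 reads per control library, and NFKB2, with 8 to 32.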
